A study of Mus musculus with 45 samples.

Results

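The core circadian clock genes were followed in mouse hippocampal primary neurons in which action potential (AP) firing was induced and then interrupted. The members were the 10 genes Per1, Per2, Per3, Cry1, Cry2, Arntl, Clock, Nr1d1, Nr1d2 and Dbp, taken by symbol from a table of 54532 genes. Each symbol matched 1 row of the table. The neurons came from newborn C57BL/6N mice, were treated with cytosine arabinoside (AraC), which limits dividing cells, from day in vitro 3, and were treated on day 10 or 11 by the labels (day 11 by the methods of the study). Each of 5 culture preparations (numbered 1, 3, 6, 7 and 8) gave 1 library for each of 9 conditions, 45 libraries in all. The control was untreated. Bicuculline (Bic, 50 µM), which blocks GABA type A receptors and thereby starts recurrent AP firing, was present for 0.5, 1 or 2 h. In the short protocol (SP), 0.5 h of Bic was followed by 0.5 h of Bic together with tetrodotoxin (TTX, 1 µM), a sodium channel blocker that stops AP firing, or with TTX and NMDA (30 µM), which activates NMDA receptors across the whole cell. The long protocol (LP) lasted 2 h, and in its later hour the Bic medium also held TTX, TTX plus NMDA, or TBOA (50 µM), a blocker of glutamate uptake. Bath-applied NMDA and TBOA in a dish are models of excitotoxic signaling, and no cells of the suprachiasmatic nucleus, the clock center of the brain, were studied.

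The clock is a loop of transcription and translation. CLOCK and ARNTL (also called BMAL1) bind DNA as a pair at E-box elements and activate the Per and Cry genes, and PER and CRY proteins in turn repress CLOCK and ARNTL. A further loop runs through Nr1d1 and Nr1d2, which encode the REV-ERB nuclear receptors that repress Arntl, and Dbp, a target of CLOCK and ARNTL, encodes an activator that binds D-box elements. Per1 and Per2 are also known as genes that respond to signals acting through cAMP response elements (CREs), as in the resetting of the clock by light. The comparisons ask how these genes follow AP firing, how they respond when firing stops (the passive effect, TTX against Bic of the same total duration), what NMDA adds (the active effect, TTX/NMDA against TTX), what both give together (the total effect, TTX/NMDA against Bic), and how glutamate spillover acts (TBOA against 2 h Bic).

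Levels are given as CPM, the reads of a gene relative to the size of its library after scaling by the TMM method. Differences are log2 fold changes ± SE from edgeR's quasi-likelihood test, fitted over all genes with a read in the libraries of the 2 conditions compared, and a gene is said to have risen, fallen or changed where its Benjamini-Hochberg adjusted p was under 0.05. Comparisons that use the same libraries, such as several against the control, are not independent of each other. The libraries held 11316580 to 81129276 counts on genes, and the members between 102 (Per3) and 17927 (Per1) reads per library, so that no member was near the detection limit. Fos, Arc and Npas4, genes induced by AP firing, checked the treatment. Fos was at 29 to 46 CPM in the control libraries and at 417 to 559 CPM after 0.5 h Bic, and Arc and Npas4 rose by 4.35 and 3.76 (log2) at this time. Of the 45 libraries, 43 deviated from their condition mean most like the libraries of their own preparation. The exceptions were the SP TTX and the LP TBOA library of preparation 6, and the latter, with 11455443 counts, had a mean correlation of −0.15 with the other libraries of its preparation. Members called by the test above in comparisons with these libraries are also given without preparation 6. Genes of other lists are not.

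The neuron markers Rbfox3, Tubb3, Map2, Snap25 and Syp summed to 4726.5 to 5948 CPM over the libraries, while the 5 microglia markers summed to at most 5.79 CPM and the endothelial markers Cldn5 and Pecam1 to at most 1.10 CPM. The 6 astrocyte markers summed to 374 to 689 CPM in the control, the 5 markers of the oligodendrocyte lineage to 44.6 to 117 CPM over all libraries and the 3 fibroblast markers to 53.6 to 188 CPM. In bulk RNA, fewer cells of a type and less RNA per cell cannot be told apart.

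In the untreated neurons all 10 clock genes were expressed. Per kilobase of exon (RPKM), the level was highest for Cry2 at 19.4 ± 2.29 (SD, n = 5) and Per1 at 13.8 ± 2.01, followed by Nr1d1 at 11.4 ± 1.53, Nr1d2 at 8.96 ± 0.424 and Clock at 5.86 ± 0.853. Dbp at 4.82 ± 0.810, Cry1 at 3.99 ± 0.741, Per2 at 3.66 ± 0.685, Arntl at 2.56 ± 0.257 and Per3 at 0.946 ± 0.172 RPKM were lower. The libraries of neighbors in this order overlapped, except for Cry2 over Per1, Nr1d1 over Nr1d2, Nr1d2 over Clock and Arntl over Per3. Cry2 (2:92403646-92434043, minus strand) shares 295 exon bases with D930015M05Rik on the opposite strand, Nr1d1 lies at 11:98767932-98775333 on the minus strand, and Dbp at 7:45705088-45710203 on the plus strand.

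The promoters of members called higher after 2 h Bic are shown. RefSeq promoter windows of 300 bases (250 before and 50 after the annotated start, build GRCm38.p6) were given for 9 of the 10 members, Per2 (1:91415982-91459324, minus strand) being the other. Capitals mark matches, on either strand, to the CRE core, which reads TGACG, and to the E-box, which reads CACGTG. They also mark a variant of the E-box, CACGTT, and the element of the ROR and REV-ERB receptors, AGGTCA. A match on the other strand appears as the reverse complement. The Per1 gene (11:69095217-69109960, plus strand) has 2 windows, at chr11:69098699-69098998 and chr11:69099902-69100201, both inside the annotated gene and mainly intronic, with 51 and 44 bases in exons. The Cry2 window (chr2:92434020-92434319, minus strand) has 24 bases in the first exon and the Nr1d1 window (chr11:98775328-98775627, minus strand) has 6, and the rest of both lies outside annotated genes.
Per1, upstream start: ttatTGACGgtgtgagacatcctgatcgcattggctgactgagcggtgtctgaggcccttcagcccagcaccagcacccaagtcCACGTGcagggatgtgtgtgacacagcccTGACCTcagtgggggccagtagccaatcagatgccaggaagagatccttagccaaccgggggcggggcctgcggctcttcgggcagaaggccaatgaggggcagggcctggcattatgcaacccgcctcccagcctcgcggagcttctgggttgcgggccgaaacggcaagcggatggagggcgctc
Per1, downstream start: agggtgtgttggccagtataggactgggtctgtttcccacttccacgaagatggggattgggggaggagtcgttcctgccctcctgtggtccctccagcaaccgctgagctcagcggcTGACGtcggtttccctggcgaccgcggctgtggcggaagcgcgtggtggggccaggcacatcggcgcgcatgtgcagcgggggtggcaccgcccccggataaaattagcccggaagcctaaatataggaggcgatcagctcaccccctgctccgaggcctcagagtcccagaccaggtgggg
Cry2: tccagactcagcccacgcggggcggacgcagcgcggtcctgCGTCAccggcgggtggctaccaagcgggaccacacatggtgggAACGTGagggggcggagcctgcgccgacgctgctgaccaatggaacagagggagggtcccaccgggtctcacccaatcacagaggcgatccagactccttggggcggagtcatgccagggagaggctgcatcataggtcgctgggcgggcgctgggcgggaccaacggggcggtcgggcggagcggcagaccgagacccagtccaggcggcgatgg
Nr1d1: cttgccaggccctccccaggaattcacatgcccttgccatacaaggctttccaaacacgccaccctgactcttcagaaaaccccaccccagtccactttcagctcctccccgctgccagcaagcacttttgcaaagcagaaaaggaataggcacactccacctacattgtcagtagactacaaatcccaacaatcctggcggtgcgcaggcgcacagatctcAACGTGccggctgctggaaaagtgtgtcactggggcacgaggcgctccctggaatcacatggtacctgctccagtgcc
Among all 32851 windows, 20.8% held the CRE core, 7.15% the E-box, 4.68% the variant and 16.3% the ROR/REV-ERB element. The CRE core was matched in both Per1 windows, 246 and 132 bases before the start, and in Cry2 209 bases before it. The ROR/REV-ERB element was matched on the other strand 137 bases before the upstream Per1 start. The E-box was matched 166 bases before the upstream Per1 start and the variant 166 bases before the start of Cry2 and 28 bases before that of Nr1d1. Of the other members, Cry1 had an E-box, its variant and the CRE core, Per3 had a pair of D-box matches (TTATGTAA, in 0.938% of windows), and Arntl, Clock and Nr1d2 had a ROR/REV-ERB element each. The full CRE TGACGTCA, which contains the core and was in 1.79% of windows, was not matched in the members' windows, and the Dbp window held none of the motifs. A match is a run of letters and does not show binding.

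AP firing raised the repressor genes Per1, Cry2 and Per2 and the REV-ERB gene Nr1d1. Per1 began at 72.5, 59.8, 85.0, 84.5 and 85.7 CPM in the control libraries of preparations 1, 3, 6, 7 and 8. It reached 82.5, 111, 106, 117 and 98.5 CPM after 0.5 h Bic, 168, 158, 153, 193 and 201 CPM after 1 h, and 346, 318, 339, 310.1 and 343 CPM after 2 h. The 1 h and 2 h libraries lay above all control libraries, and the 2 h libraries above all 1 h libraries, whereas 1 library of 0.5 h Bic overlapped the control. Relative to the control, Per1 had risen by 0.41 ± 0.09 at 0.5 h (adjusted p = 0.022), by 1.17 ± 0.09 at 1 h (1.8e-12) and by 2.08 ± 0.09 at 2 h (1.7e-19), which is 4.23-fold. It was higher in 5 of 5 preparations at each time. At 0.5 h it was the member called, where 0.289% of all genes tested were called higher, but the call was lost with the preparation as a block (adjusted p = 0.15) and without preparation 3 (0.12). At 1 h, Per1 and Cry2 were called, against 0.965% of all genes. Of the genes with a mean of at least 1 CPM, 0.574% were called higher at 0.5 h and 1.97% at 1 h.

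Cry2 was at 124, 99.2, 138, 122 and 129.8 CPM in the control and at 160.2, 141, 157, 155 and 171 CPM after 1 h Bic, with no overlap. After 2 h it was at 247, 215, 261, 226 and 249.8 CPM. It had risen by 0.35 ± 0.08 at 1 h (adjusted p = 0.017; 0.071 without preparation 1 and 0.059 without preparation 7) and by 0.96 ± 0.08 at 2 h (8.4e-11). Per2 was called at 2 h. Its control libraries were at 22, 14.8, 22.6, 21.9 and 25.7 CPM, and its 1 h libraries, at 29, 19.2, 19.1, 25.1 and 29.6 CPM, overlapped them. After 2 h Bic it was at 43.2, 30.0, 35.6, 38.8 and 57.6 CPM, above every control library, and had risen by 0.93 ± 0.13 (adjusted p = 1.2e-06). Preparation 8 had the highest Per2 level at this time and also in each of the other conditions. Cry1 and Per3, the remaining members of the repressor families, were at 11.0 to 17.3 and 7.97 to 12 CPM in the control and at 12.1 to 18.2 and 8.29 to 12.7 CPM after 2 h, and neither was called. Per3 overlaps Camta1 (mean 377 CPM over the libraries) on the same strand without shared exon bases. Intronic reads of Camta1 over Per3 exons would be counted as Per3, and their share was not tested.

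**Figure D1:**
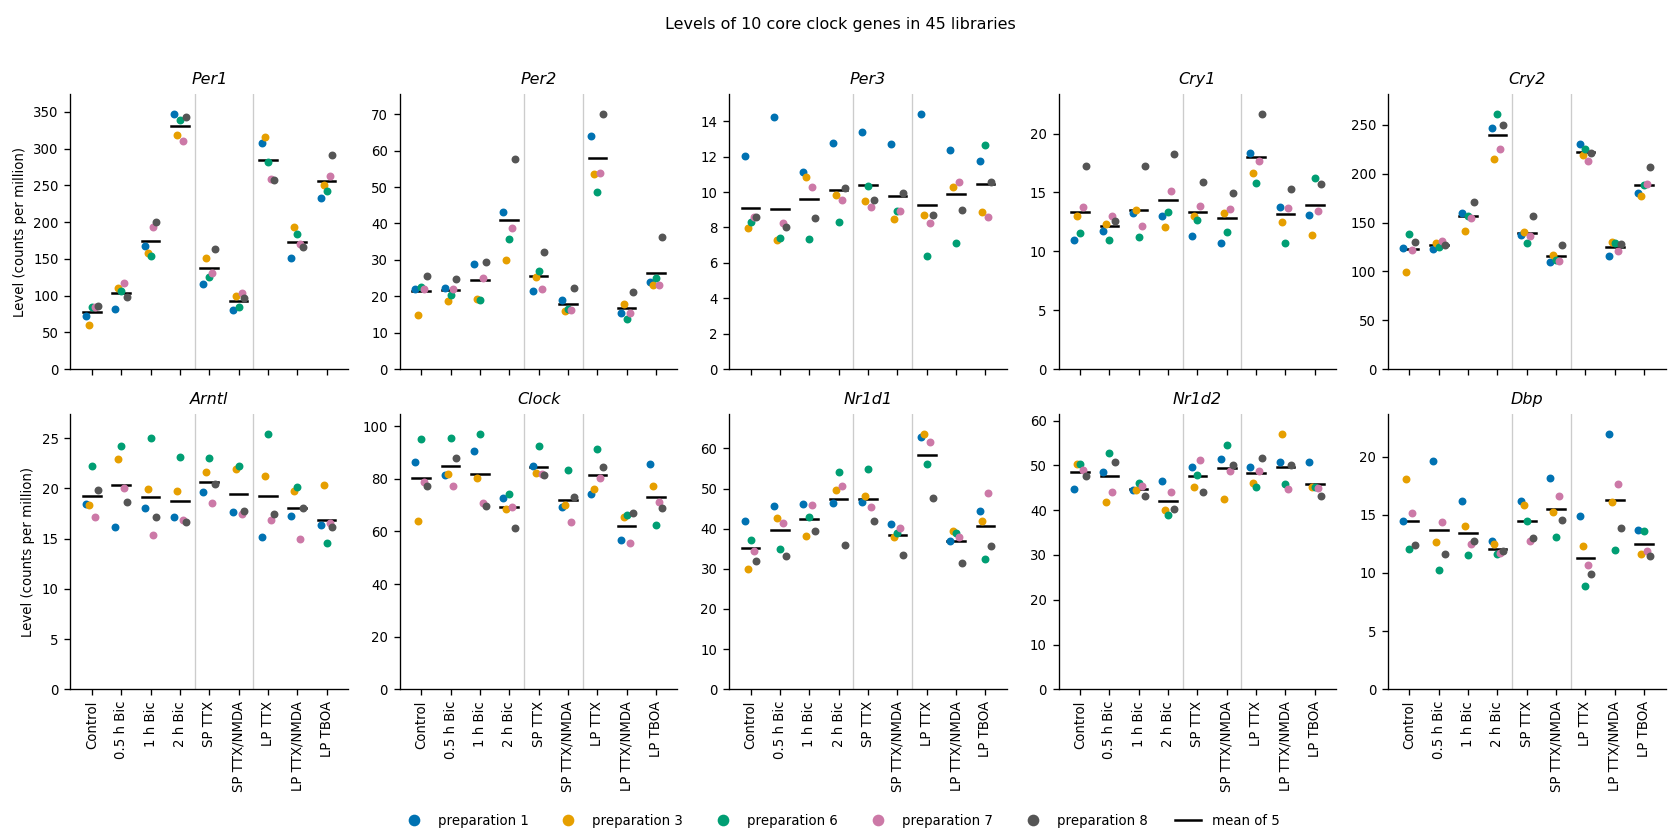
Level of each core clock gene in CPM (vertical axis, from 0) in the 9 conditions (horizontal axis), with 1 point per library colored by culture preparation and a bar at the mean of 5. Per1 climbs from 59.8 to 85.7 CPM in the control to 310.1 to 346 CPM after 2 h Bic, Per2 is highest in LP TTX, and Per3 is highest in preparation 1 in 8 of the 9 conditions.

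Of the steps between times, Per1 rose at both, by 0.76 ± 0.08 from 0.5 to 1 h (adjusted p = 3.1e-11) and by 0.92 ± 0.07 from 1 to 2 h (3.8e-12). Cry2 rose by 0.30 ± 0.07 (0.015) and 0.61 ± 0.07 (2.4e-08), the former not called without preparation 1 (adjusted p = 0.15), 7 (0.053) or 8 (0.079). Per2 was called in the later step, with a rise of 0.76 ± 0.12 (3.9e-05). The 2 members of the earlier step compare with 0.634% of all genes called higher, and the 3 of the later step with 2.53%. Over genes with a mean of at least 1 CPM these shares were 1.39% and 5.29%.

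Nr1d1 was at 42, 29.9, 37.3, 34.5 and 32 CPM in the control and at 46.3, 49.6, 54.2, 50.7 and 35.9 CPM after 2 h Bic. The groups overlapped, but the level was higher in 5 of 5 preparations, by 36.1 ± 24.1% (SD), and the rise was 0.42 ± 0.10 (adjusted p = 0.0024). Thra, which lies on the opposite strand and shares 263 exon bases with Nr1d1, was not called at 2 h (0.15 ± 0.08, adjusted p = 0.30), and reads were assigned by strand. In the fit with the preparation as a block, Nr1d1 was called at 1 h as well (adjusted p = 0.015), where that fit called 2.92% of genes higher. In all, 4 of the 10 members had risen at 2 h, against 4.24% of the 30929 genes tested, and the median log2 fold change was 0.12 over the members and −0.01 over all genes tested. Among the 13592 genes with a mean of at least 1 CPM, to which all members belong, 8.18% had risen.

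The activator genes Arntl and Clock were not called at any time of Bic. Arntl was at 17.2 to 22.2 CPM in the control and 16.7 to 23.1 CPM after 2 h Bic, and Clock at 63.8 to 95.3 and 61.4 to 74.4 CPM. Nr1d2 was at 44.8 to 50.3 CPM in the control and 38.9 to 46.6 CPM at 2 h, and Dbp at 12 to 18.1 and 11.6 to 12.7 CPM. Nr1d2 and Dbp were not called either. With the preparation as a block, Clock (−0.21, adjusted p = 0.030), Nr1d2 (−0.22, 0.026) and Dbp (−0.25, 0.040) were called lower after 2 h, which made 7 members called in place of 4, and Clock was called lower from 1 to 2 h (−0.23, 0.0017). Dbp was lower at 2 h in 5 of 5 preparations and Clock and Nr1d2 in 4 of 5. Of all genes tested, 4.78% were called lower at 2 h without the block, but 15% lower and 14.4% higher in the fit with it, which also tested fewer genes. From 1 to 2 h, 12.5% were called lower with the block. Without the block, 1 of 4 excitatory neuron markers (Slc17a7, Camk2a, Neurod6 and Prox1) was called lower after 2 h Bic than in the control. Of 3 inhibitory neuron markers (Gad1, Gad2 and Slc32a1), 1 was called higher. The part of these markers in the clock gene results was not tested.

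In the SP, stopping AP firing with TTX changed 1 clock gene and adding NMDA lowered 5. Per1 was at 115, 151, 125, 130.3 and 164 CPM in SP TTX, overlapping the 153 to 201 CPM of 1 h Bic, and lower than 1 h Bic in 5 of 5 preparations. The passive effect on it was −0.35 ± 0.08 (adjusted p = 0.046), where 0.252% of all genes were called lower. Over genes with a mean of at least 1 CPM this share was 0.515%. The call of Per1 was lost without preparation 1 (adjusted p = 0.28) and without preparation 7 (0.30), and under 4 of the other settings tried, but it held without preparation 6 (0.020). In SP TTX/NMDA, Per1 was at 79.9, 100.2, 84.9, 103 and 96.5 CPM, below every SP TTX library and partly within the range of the control. Parallel cultures after 0.5 h Bic, the time at which TTX and NMDA were added, were at 82.5 to 117 CPM. The active effect on Per1 was −0.57 ± 0.08 (adjusted p = 1.8e-05).

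Per2, at 21.6, 25.4, 27, 22.1 and 32.2 CPM in SP TTX, was at 19, 15.8, 16.6, 16.3 and 22.3 CPM in SP TTX/NMDA, lower in 5 of 5 preparations although the highest library overlapped. Its active effect was −0.52 ± 0.10 (adjusted p = 0.0012). Cry2 fell by 0.28 ± 0.07 (0.0097), from 129 to 157 CPM down to 110.1 to 127 CPM, without overlap. Nr1d1 fell by 0.31 ± 0.08 (0.0093), from 41.9 to 54.8 CPM down to 33.5 to 41 CPM, and Clock by 0.24 ± 0.07 (0.044), from 81.3 to 92.3 CPM down to 63.6 to 83.4 CPM. These 5 members compare with 3.32% of all genes called lower, and the median log2 fold change was −0.17 over the members and 0.04 over all genes tested. Among the genes with a mean of at least 1 CPM, to which all members belong, 7.81% were called lower. Without preparation 6, whose SP TTX library stood apart, the values were −0.57 for Per1, −0.47 for Per2, −0.30 for Cry2 and −0.27 for Clock, all called, and −0.26 for Nr1d1, which was not (adjusted p = 0.050). The call of Cry2 was lost without preparation 1 (0.053), and that of Clock without preparation 1 (0.18), 3 (0.091) or 7 (0.15).

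Against 1 h Bic, SP TTX/NMDA lowered Per1 by 0.91 ± 0.08 (adjusted p = 1.2e-10), Cry2 by 0.45 ± 0.07 (2.2e-05) and Per2 by 0.43 ± 0.11 (0.018; 0.10 without preparation 1), where 3.41% of all genes were called lower. Each of the 3 was lower in 5 of 5 preparations. Of the genes with a mean of at least 1 CPM, 7.75% were called lower. With the block, 6 members were called in this total effect, Clock (−0.19, adjusted p = 0.021) and Nr1d1 (−0.16, 0.024) lower and Dbp (0.20, 0.021) higher in addition, while this fit called 15.6% of genes lower and 11.7% higher. Along with these changes, the summed level of the excitatory neuron markers Slc17a7, Camk2a, Neurod6 and Prox1 was 2209.7 to 2817 CPM in SP TTX and 1468 to 1953 CPM in SP TTX/NMDA, and all 4 markers were called lower. Of the 3 inhibitory neuron markers (Gad1, Gad2 and Slc32a1), 2 were called higher in SP TTX/NMDA than in SP TTX, with sums of 1199 to 1586 CPM in SP TTX and 1410.1 to 2039.7 CPM in SP TTX/NMDA, and the astrocyte markers summed to 439 to 986 and 439 to 882 CPM. Of the 5 neuron markers, 1 was called lower in SP TTX/NMDA than in SP TTX. The part of these shifts in the clock gene results was not tested.

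In the LP, TTX alone moved Per1 and Per2 in opposite directions. Per2 reached its highest level of all conditions in LP TTX, at 63.9, 53.6, 48.5, 53.9 and 69.9 CPM, higher than 2 h Bic in 5 of 5 preparations by 44.7 ± 21.3% (SD), with overlapping groups. The passive effect on Per2 was 0.49 ± 0.11 (adjusted p = 0.0055), a call that was lost over the genes kept by filterByExpr (0.057). Per1, at 308, 316, 282, 259 and 258 CPM, was lower than after 2 h Bic in 5 of 5 preparations, with 1 library inside the range of 2 h Bic, and its passive effect was −0.23 ± 0.06 (0.032). Fos, Arc and Npas4 fell in the same comparison by 0.71, 1.72 and 1.52 (log2).

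Nr1d1 rose with TTX to 62.8, 63.5, 56.2, 61.5 and 47.7 CPM, its highest level, by 0.29 ± 0.09 (adjusted p = 0.043), and Clock rose to 74.1 to 91.2 CPM, by 0.22 ± 0.07 (0.049). Thra, the neighbor of Nr1d1 on the other strand, fell by 0.20 ± 0.06 (0.045). The 3 members called higher compare with 3.03% of all genes, and the 1 called lower with 1.62%. Over genes with a mean of at least 1 CPM these shares were 6.84% and 3.60%. With the block, 7 members were called, with Cry1 (0.31, adjusted p = 0.00089) and Nr1d2 (0.19, 0.0051) higher and Cry2 (−0.13, 0.026) lower in addition, but this fit called 15.7% of genes higher and 16.2% lower. In contrast, 1 member, Per2, was called when all 45 libraries shared 1 fit. Leaving out preparations changed calls: Per1 was lost without preparation 6 (0.10), 7 (0.11) or 8 (0.13), Clock without 3 (0.063), 6 (0.14), 7 (0.11) or 8 (0.14), and Nr1d1 without 1 (0.14) or 3 (0.060).

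Adding NMDA in the LP changed 7 of the 10 clock genes. Per2 was at 15.5, 17.8, 13.7, 15.4 and 21.2 CPM in LP TTX/NMDA, below every LP TTX and every 2 h Bic library and within or near the control range. Parallel cultures after 1 h Bic, the time of addition, were at 19.1 to 29.6 CPM. The active effect on Per2 was −1.79 ± 0.10 (adjusted p = 8.0e-14), a mean loss of 71.1 ± 3.25% within preparations (SD, n = 5). Cry2 was at 231, 219, 225, 213 and 221 CPM in LP TTX and at 116, 130.0, 129, 121 and 128 CPM in LP TTX/NMDA, within the range of the control, and its active effect was −0.84 ± 0.06 (2.0e-11). After 1 h Bic it was at 141 to 171 CPM. Per1 was at 151, 194, 184, 169.9 and 166 CPM in LP TTX/NMDA, which is about the range after 1 h Bic and above every control library, with an active effect of −0.73 ± 0.07 (8.0e-09).

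Nr1d1 fell by 0.67 ± 0.08 (adjusted p = 2.3e-07), to 37, 39.5, 39, 38 and 31.5 CPM, below every LP TTX library. Thra fell by 0.27 ± 0.06 (0.0017). Cry1 fell by 0.45 ± 0.10 (0.0011), from 15.8 to 21.6 CPM down to 10.7 to 15.3 CPM, and Clock by 0.39 ± 0.07 (0.00014), from 74.1 to 91.2 CPM down to 55.6 to 67.1 CPM, both without overlap. Dbp, the D-box activator, was the member that rose, by 0.53 ± 0.13 (0.0032). Its libraries were at 14.9, 12.3, 8.88, 10.7 and 9.88 CPM in LP TTX and at 21.9, 16.1, 12, 17.6 and 13.9 CPM in LP TTX/NMDA, higher in 5 of 5 preparations although the groups overlapped. Sphk2, which shares 539 exon bases with Dbp on the opposite strand, was not called (0.02 ± 0.08, adjusted p = 0.90). Camta1, the gene that overlaps Per3 on the same strand, fell by 0.54 ± 0.07 (edgeR, adjusted p = 1.0e-06). Per3, Arntl and Nr1d2 were not called. All 7 calls held under each alternative tried.

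**Figure D2:**
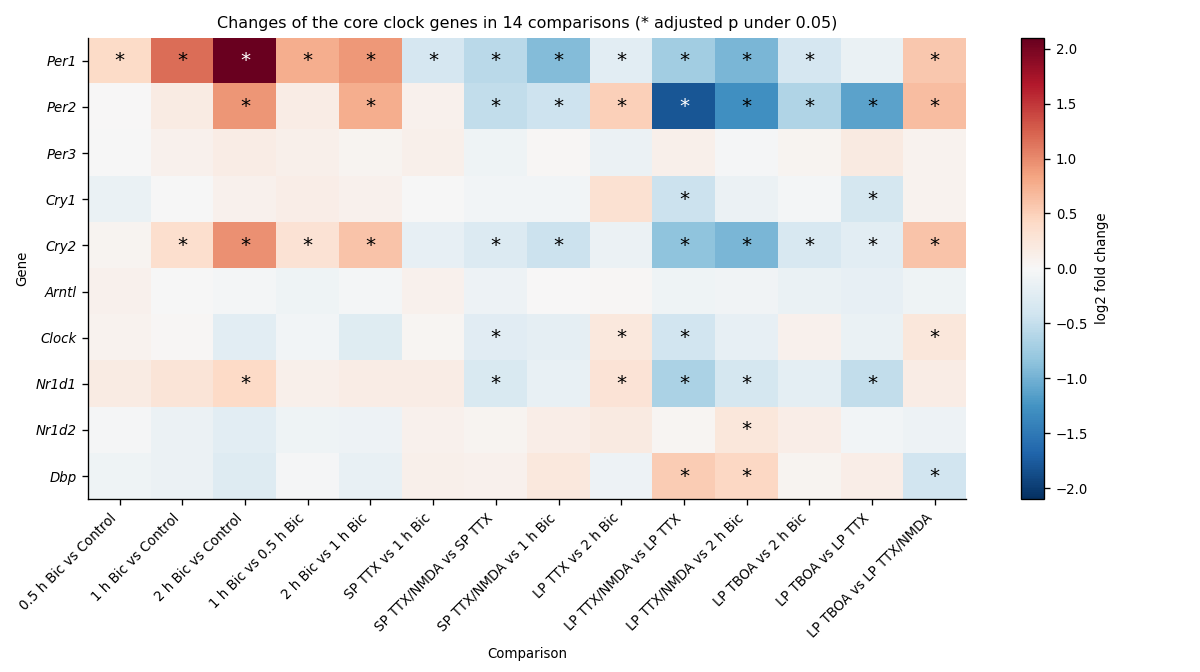
Log2 fold changes (color scale) of the 10 core clock genes (rows) in 14 comparisons (columns), with a star where the adjusted p was under 0.05. Per1, Per2 and Cry2 are red after 2 h Bic and blue where TTX/NMDA is compared with TTX or Bic, Per2 is red in LP TTX against 2 h Bic, Dbp is red in the comparisons of LP TTX/NMDA with LP TTX and 2 h Bic, and Per3 and Arntl have no star.

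This comparison changed a large part of the transcriptome, with 11.8% of the 32852 genes tested called lower and 11.6% higher. Among the 13592 genes with a mean of at least 1 CPM, to which all members belong, 26.9% were called lower and 20.004% higher, so that the number of members called lower, 6 of 10, is to be read against a high background. The median log2 fold change was −0.42 over the members, 0.11 over all genes tested and −0.01 over the genes with at least 1 CPM. The cell type markers moved too. Of the 5 neuron markers, 1 was called lower, with sums of 5477 to 5948 CPM in LP TTX and 4726.5 to 5077 CPM in LP TTX/NMDA. The excitatory neuron markers summed to 2209 to 2706 CPM in LP TTX and 1046 to 1518 CPM in LP TTX/NMDA, with all 4 called lower, and the astrocyte markers to 389 to 805 and 688 to 1429 CPM, with all 6 called higher. All 3 fibroblast markers were also called higher, with sums of 60.5 to 129 CPM in LP TTX and 77.8 to 188 CPM in LP TTX/NMDA, as were 3 of the 5 oligodendrocyte lineage markers (45 to 72.1 and 51.9 to 117 CPM), 1 of 3 inhibitory neuron markers and 1 of 5 microglia markers. Their part in the clock gene results was not tested.

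The total effect of the LP, TTX/NMDA against 2 h Bic, left Per2 lower by 1.29 ± 0.12 (adjusted p = 1.5e-10), Per1 by 0.95 ± 0.07 (1.2e-12), Cry2 by 0.95 ± 0.07 (7.3e-13) and Nr1d1 by 0.37 ± 0.09 (0.0018), against 11.1% of all genes called lower. The first 3 did not overlap 2 h Bic in any library, and how many of all genes separate in this way was not counted. Dbp was higher by 0.43 ± 0.11 (0.0044) and Nr1d2 by 0.23 ± 0.08 (0.022), against 11.7% called higher, and among the genes with a mean of at least 1 CPM 25.1% were called lower and 20.2% higher, so that the 2 of 10 members called higher are at the background. Nr1d2 was not called without preparation 3 (0.14). Thra was lower by 0.47 ± 0.07 (1.3e-06). The excitatory neuron markers, at 2297 to 2755 CPM after 2 h Bic, and the astrocyte markers, at 416 to 749.5 CPM, shifted in this comparison as in the active effect. Also called were 1 of 5 neuron markers (lower), and 3 of 5 oligodendrocyte lineage, 2 of 3 fibroblast and 1 of 3 inhibitory neuron markers (higher).

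The active effect differed between the protocols for Per2 and Cry2. For Per2, it was −1.79 in the LP and −0.52 in the SP, a difference of −1.25 ± 0.16 (interaction term, adjusted p = 1.6e-06). For Cry2 it was −0.84 and −0.28, a difference of −0.54 ± 0.09 (0.00011). The TTX/NMDA levels overlapped between SP and LP, at 15.8 to 22.3 and 13.7 to 21.2 CPM for Per2. For Cry2 they were 110.1 to 127 and 116 to 130.0 CPM. The TTX levels did not overlap, at 21.6 to 32.2 and 48.5 to 69.9 CPM for Per2. For Cry2 these were 129 to 157 and 213 to 231 CPM. The protocols also differed in the durations of Bic and NMDA. Whether NMDA itself acted more strongly in the LP was not tested. Per1, with −0.73 and −0.57, had a difference of −0.14 ± 0.12 (0.70). Of all genes, 1.85% had a lower active effect in the LP, and of those with a mean of at least 1 CPM 4.66%. With the block, Cry1 (−0.38, adjusted p = 0.0050), Nr1d1 (−0.35, 0.0015) and Dbp (0.44, 0.0082) differed too, which made 5 members, while this fit called 15.1% of genes lower and 9.85% higher. Without preparation 6, the differences without the block were −1.31 for Per2 (adjusted p = 1.1e-06) and −0.53 for Cry2 (0.00098). The passive effect differed between the protocols for 0 members by edgeR and by DESeq2, although 2 (Per2 and Cry1) had an unadjusted p under 0.05, and for 0.187% and 0.0699% of all genes with a higher and a lower effect in the LP.

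**Figure D3:**
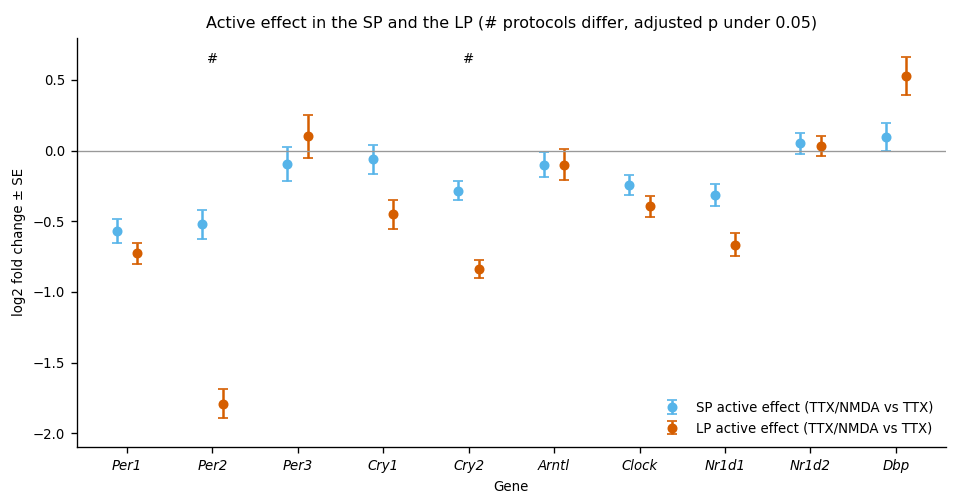
Active effect (log2 fold change ± SE of TTX/NMDA against TTX, vertical axis) on each clock gene in the SP (blue) and the LP (orange). The LP value of Per2 lies at −1.79 against −0.52 in the SP, and the hash marks Per2 and Cry2, whose effects differed between the protocols.

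Under glutamate spillover, Per1, Per2 and Cry2 were lower than after 2 h Bic. Per1 was at 232, 251, 243, 263 and 291 CPM in LP TBOA, below every 2 h Bic library, and its difference from 2 h Bic was −0.36 ± 0.06 (adjusted p = 0.0017). Cry2 was at 181, 177, 188, 189 and 206 CPM, also below every 2 h Bic library, with −0.34 ± 0.06 (0.0032). Per2 was at 23.9, 23.2, 25.1, 23 and 36.3 CPM, lower in 5 of 5 preparations with overlap through preparation 8, with −0.62 ± 0.12 (0.0036; 0.12 over the genes kept by filterByExpr and 0.081 by DESeq2). These 3 compare with 0.549% of the genes tested called lower, and with 1.27% of those with a mean of at least 1 CPM. Without preparation 6, whose TBOA library stood apart, the values were −0.33 for Per1 (adjusted p = 0.0079), −0.31 for Cry2 (0.019) and −0.66 for Per2 (0.0014). The excitatory neuron markers summed to 1984 to 2451 CPM and the astrocyte markers to 589 to 892 CPM in LP TBOA, and no cell type marker was called against 2 h Bic.

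Against LP TTX, TBOA gave lower Per2 (−1.13 ± 0.10, adjusted p = 9.0e-11), Nr1d1 (−0.51 ± 0.09, 7.6e-05), Cry1 (−0.38 ± 0.10, 0.014) and Cry2 (−0.23 ± 0.06, 0.020), where 3.50% of all genes were called lower. Per1 was not called between them, with libraries at 232 to 291 and 258 to 316 CPM. Of the genes with a mean of at least 1 CPM, 7.68% were called lower in this comparison. In the TBOA library of preparation 6, Cry1 (16.2 CPM) was above and Nr1d1 (32.5 CPM) below the other libraries of the condition, and without this preparation Cry1 was at −0.47 (adjusted p = 0.0016), Nr1d1 at −0.46 (0.00010), Per2 at −1.17 (2.7e-15) and Cry2 at −0.23 (0.061). The call of Cry2 was also lost without preparation 1 (0.13), 3 (0.14) or 7 (0.061), and that of Cry1 without 1 (0.053) or 3 (0.055).

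Against LP TTX/NMDA, TBOA left higher levels of Per2 (0.65 ± 0.11, adjusted p = 3.8e-05), Cry2 (0.60 ± 0.07, 3.5e-08), Per1 (0.57 ± 0.08, 6.0e-07) and Clock (0.25 ± 0.08, 0.031), against 7.99% of all genes, and a lower level of Dbp (−0.39 ± 0.11, 0.013), against 8.60%. Among the genes with a mean of at least 1 CPM, 18.6% were called higher and 14.8% lower. All 4 excitatory neuron markers (median 0.70) and 1 of 5 neuron markers were called higher in TBOA. All 6 astrocyte markers were called lower (median −0.60), as were 2 of 5 oligodendrocyte lineage, 1 of 3 fibroblast and 1 of 3 inhibitory neuron markers. The part of the markers in these clock gene results was not tested. Without preparation 6 the values were 0.62, 0.63, 0.63, 0.33 and −0.49, all called. The call of Clock was lost without preparation 1 (0.38), 3 (0.079) or 7 (0.083), and that of Dbp without preparation 1 (0.060). For Per1, Per2 and Cry2, LP TTX/NMDA was thus below LP TBOA, and LP TBOA below 2 h Bic.

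The members differed in how much of their variation followed the conditions. Over the 45 libraries, the condition accounted for 95.8% of the variation of log2 CPM of Per1, 94.6% of Cry2, 84.2% of Per2 and 64.6% of Nr1d1, followed by Clock (53.0%), Cry1 (41.7%), Nr1d2 (38.2%) and Dbp (36.8%). For Arntl and Per3 it was 17.2% and 9.31%, while the preparation accounted for 52.1% and 58.8%. Averaged over the 9 conditions, Per3 was at 12.7 CPM in preparation 1 and at 8.52 to 9.23 CPM in the others, and Arntl at 22.2 CPM in preparation 6 and 20.7 CPM in preparation 3 against 17.1 to 18 CPM in the others. Dbp varied as much with the preparation (36.8%) as with the condition. What differed between preparations besides their number was not given in the sources used here.

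**Figure D4:**
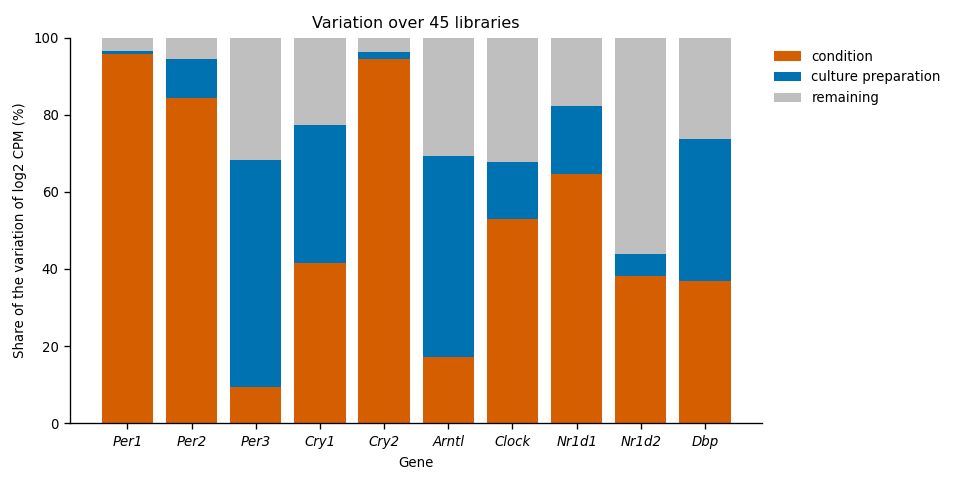
Share of the variation of log2 CPM over 45 libraries (vertical axis, percent) that followed the condition (orange), the culture preparation (blue) or neither (gray) for each clock gene. Per1 and Cry2 are almost wholly orange (95.8% and 94.6%), and the blue part is largest in Per3 (58.8%) and Arntl (52.1%).

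The accessory clock genes, a list of 20 regulators and relatives of the core genes, changed as follows. After 2 h Bic, 5 of 20 had risen, with a median of 0.07 over the list. This compares with 4.24% of all genes tested and 8.18% of those with a mean of at least 1 CPM. Nfil3, a repressor at D-box elements, rose by 0.53 at 0.5 h (adjusted p = 0.0013), 1.62 at 1 h (3.0e-18) and 2.74 at 2 h (3.9e-24), from 29.1 to 34.5 CPM in the control to 205 to 242 CPM. Rorb, a nuclear receptor that acts at the same elements as the REV-ERBs, rose by 1.10 at 2 h (6.4e-06), Bhlhe40, a repressor at E-boxes, by 0.80 (1.7e-08) and Ciart, a repressor of CLOCK and ARNTL, by 0.61 (0.00050). Usp2, a deubiquitinase gene, also rose, by 0.59 (1.0e-06). At 0.5 h, 1 of 20 had risen and at 1 h 3 of 20, Nfil3 with Bhlhe40 (0.49, 0.0017) and Ciart (0.48, 0.013). Of all genes tested, 0.289% had risen at 0.5 h and 0.965% at 1 h. Over genes with a mean of at least 1 CPM these shares were 0.574% and 1.97%.

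In the SP, the passive effect lowered 1 accessory gene, Nfil3 (−0.46, adjusted p = 0.0011), and the active effect 3, Nfil3 (−0.79, 1.8e-05), the D-box activator Tef (−0.26, 0.024) and Btrc (−0.25, 0.017), which marks PER proteins for degradation. These effects lowered 0.252% and 3.32% of all genes tested, and 0.515% and 7.81% of those with a mean of at least 1 CPM. In the LP, the passive effect lowered Nfil3 (−0.52, 1.3e-05). The active effect raised 5 and lowered 7 of the 20, beside 20.004% higher and 26.9% lower among all genes with a mean of at least 1 CPM. The largest of these were Rorb (0.90, 3.1e-05), the E-box repressor Bhlhe41 (0.71, 0.00012), the Arntl relative Arntl2 (0.63, 0.0085) and Bhlhe40 (−0.58, 7.1e-05). Rorb was at 5.22 to 9.47 CPM in LP TTX and at 9.53 to 17.6 CPM in LP TTX/NMDA, and its active effect differed between the protocols by 0.95 (0.011), as that of Noct, a gene with circadian expression, did by −0.39 (0.012). TBOA lowered 1 accessory gene against 2 h Bic, Nfil3 (−0.27, 0.035). It lowered 0.549% of all genes tested and 1.27% of those with a mean of at least 1 CPM.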

How the data were processed

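RNA of 45 samples was sequenced from poly-A libraries that keep the strand (single end, 75 cycles). The authors used bcl2fastq (2.20.0.422), aligned reads with STAR (2.5.4b) to GRCm38 with an Ensembl annotation and counted sense reads per gene with featureCounts (1.6.5), leaving out reads with several positions or genes. The deposited values are these raw counts, without normalization by the authors. Reads from repeated sequence are therefore missing, and reads in exons shared on 1 strand are lost.

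Conditions and preparation numbers were taken from the labels. Here edgeR (4.0.16, R 4.3.3) was run per pair of conditions, with TMM, glmQLFit and glmQLFTest, over genes with at least 1 read, and an adjusted p-value threshold of 0.05. The SE is the fold change divided by the root of F. CPM used TMM over 45 libraries, and log2 CPM a prior count of 2. RPKM used exon lengths of GENCODE M21. The alternatives were DESeq2 size factors, filterByExpr, DESeq2 (1.42.0), 1 fit of all libraries, the preparation as a block over genes passing filterByExpr, and leaving out each preparation. The preparation number marks a shared culture, and in 167 of 180 pairs of libraries from the same preparation the deviations from the condition means correlated above 0.1 (mean 0.43, lowest −0.29).

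All 10 members are described. For 20 accessory clock genes, counts of called genes and the largest changes are given for part of the comparisons. For 7 CREB regulators, called genes are named for part of the comparisons without counts. For members called against the control, the 3 genes with the highest correlation are given. Values of 1 accessory gene are not reported here. The members and lists were chosen with earlier results of these data known. Scripts were tested on simulated counts. P-values without the block set a difference against the spread between the libraries of a condition, without pairing libraries of the same preparation. With the block, differences between preparations are removed before the spread is taken.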

Additional observations from a re-analysis of the deposited data

Results flagged for a closer look

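The active effect differed between the protocols for Per2 and Cry2, where the LP effect was lower than the SP effect by −1.25 for Per2 and −0.54 for Cry2 on the log2 scale (interaction term of edgeR, adjusted p = 1.6e-06 and 0.00011). Both genes fell in 5 of 5 preparations in each protocol. Their TTX/NMDA levels overlapped between the protocols, whereas their TTX levels were higher in the LP without overlap. The durations of Bic and NMDA also differed, and whether NMDA itself acted more strongly in the LP was not tested.

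In 5 of 90 groups of 5 libraries, a single library lay apart from the rest by Dixon's criterion, which chance alone gives in about 1 of 20 groups. The library of preparation 1 had the highest Per3 level in the control (12 CPM, the others 7.97 to 8.59), after 0.5 h Bic (14.2 CPM, the others 7.31 to 8.26) and in SP TTX (13.4 CPM, the others 9.13 to 10.3). Nr1d2 in LP TBOA was at 50.7 CPM in preparation 1 and at 43.2 to 45.3 CPM in the others. Per2 in LP TBOA was at 36.3 CPM in preparation 8 and at 23 to 25.1 CPM in the others.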

How the results depend on the processing

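Of 52 member and comparison pairs that were called, 34 were called under every alternative and 36 with each preparation left out, and none changed direction. By setting, 50 of the 52 were kept with DESeq2 size factors, 44 with filterByExpr, 48 with DESeq2, 44 with all 45 libraries in 1 fit and 51 with the replicate block, which also added 14 calls. The number of members called moved by over 1.5 times as follows, and the cause was not tested. For 0.5 h Bic against the control it was 1, and 0 with filterByExpr, DESeq2 or the block. For the passive effect of the SP it was 1, and 0 with DESeq2 size factors, filterByExpr, DESeq2 or all 45 libraries. For the passive effect of the LP it was 4, and 2 with filterByExpr, 1 with all 45 libraries and 7 with the block. The active effect of the SP had 5, and 3 with all 45 libraries. The paired fit, with the block, gave 7 in place of 4 for 2 h Bic against the control, 6 in place of 3 for the total effect of the SP, and 5 in place of 2 for the difference in active effect between the protocols. It changed no other count by as much.

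With each preparation left out, the counts ranged from 0 to 1 at 0.5 h Bic, 1 to 2 at 1 h Bic and 1 to 2 from 0.5 to 1 h. They ranged from 0 to 1 for the passive and 3 to 5 for the active effect of the SP, 2 to 3 for the passive effect of the LP, 2 to 4 for TBOA against LP TTX and 3 to 5 for TBOA against LP TTX/NMDA. With 102 to 906 reads of Per3 and 126 to 1083 of Cry1 per library, small changes of these genes were less detectable than those of Per1 or Cry2.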

Other observations

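Among 7 regulators of CREB, the factor that binds CREs, Sik1, a kinase that is itself induced through CREB and restrains its coactivators, rose by 0.84 at 0.5 h Bic (edgeR, adjusted p = 2.3e-07), by 1.99 at 1 h (1.1e-19) and by 2.53 at 2 h (1.4e-20). At 2 h, Crem, which encodes activators and repressors at the same elements, rose by 1.12 (5.1e-13) and Creb1 fell by 0.69 (6.9e-08). The active effect lowered Sik1 (−0.70, 8.2e-06) and the coactivator gene Crtc1 (−0.26, 0.039) in the SP. In the LP it lowered Crtc1 (−0.37, 0.00014) and Crem (−0.33, 0.0035) and raised Crtc3 (0.24, 0.029), and Sik1 was at 86.2 to 107 CPM in LP TTX and 90.5 to 130.0 CPM in LP TTX/NMDA. The active effect on Sik1 differed between the protocols by 0.89 (0.00018). In the passive effect of the LP, Sik1 fell by 0.68 (1.2e-07) and Crtc3 by 0.34 (0.0051), and Atf1 rose by 0.63 (0.00061) and Creb1 by 0.31 (0.026).

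Over the 45 libraries, with the preparation means removed, the genes among 13592 whose log2 CPM correlated most with a member were Midn (r = 0.99), Fosl2 (0.99) and Gm45902 (0.98) for Per1, and Josd1 (0.98), Sntb2 (0.97) and Slc2a3 (0.97) for Cry2. For Per2 they were Etv3 (0.96), Pdgfb (0.95) and Mast4 (0.95), and for Nr1d1 Sde2 (0.87), Tacc1 (0.82) and Fam160b1 (0.82). The points share conditions, libraries and depth, and the values are descriptions. Between the members, the highest correlations were 0.92 for Per1 with Cry2 and 0.87 for Per2 with Cry2, and the lowest was −0.69 for Cry2 with Dbp.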
